A study of Drosophila melanogaster with 6 samples.

Results

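Narrow strong Insv peaks are binding intervals of 700 bp or less to which the authors' peak caller gave a score of 25 or more. They were selected by width and score from a chromatin immunoprecipitation sequencing (ChIP-seq) list of Insensitive (Insv) in Kc167 cells, on the main arms, which are X, both arms of chromosomes 2 and 3, and chromosome 4. The rule found 479 such peaks among 12693 peaks on these arms and 13016 in the whole list. The label of the set describes exactly these limits, and no cell type or gene enters it. Peaks of 700 bp or less with a score below 25, 7542 in number, are the class against which spacing and location were compared, and are called narrow weak peaks here.

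Kc167 is an established female line derived from late embryos of Drosophila melanogaster, and the labels give its genotype as se/e. The labels name 3 ChIP samples, precipitated with a rabbit polyclonal serum against Insv that had been pre-adsorbed with early embryos, and 3 input samples of genomic DNA. No treatment or second genotype is named, and both kinds of sample share the line, the cross-linking and the sonication. The deposited data are 1 list of peaks on FlyBase release 5 in which no value belongs to a single library, so that neither the depth nor the spread between replicates is known. Neither file nor labels say what the score measures.

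Insv is a nuclear protein with a BEN domain, a fold through which such proteins bind DNA. It is known in flies as a corepressor that acts with Su(H), the transcription factor of the Notch pathway, and as a repressor that can also work apart from Notch. Sonication breaks chromatin into fragments longer than the sequence a protein contacts, so that even a single binding site gives a peak wider than the site itself. Broad peaks can hold several sites or a stretch over which the protein is spread. The comparison below asks whether sites that are strong yet narrow lie elsewhere, or in other company, than weak sites of the same narrow form.

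Width and score, the values that define the class, are given first as a description. The 479 peaks made up 3.77% of the peaks on the arms, 5.97% of the 8021 narrow peaks and 16.0% of the 2990 peaks with a score of 25 or more. Their median width was 570 bp, with quartiles of 471 and 642 bp. Narrow weak peaks had a median width of 340 bp, with quartiles of 261 and 471 bp. The scores of narrow strong peaks had a median of 32.2 and quartiles of 28.2 and 42.2, and those of narrow weak peaks a median of 12.0 and quartiles of 9.98 and 15.3. Both limits cut through a continuous cloud. The lowest member scored 25.08, on 2L from 18604404 to 18605087, and the highest narrow score below the limit was 24.91, a value shared by 17 peaks. The widest members measured 700 bp, of which there were 5, and the next strong peaks outside the limit measured 701 bp, of which there were 4. Scores below 30 were held by 187 members (39.0%), and widths above 600 bp by 191 (39.9%).

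**Figure D1:**
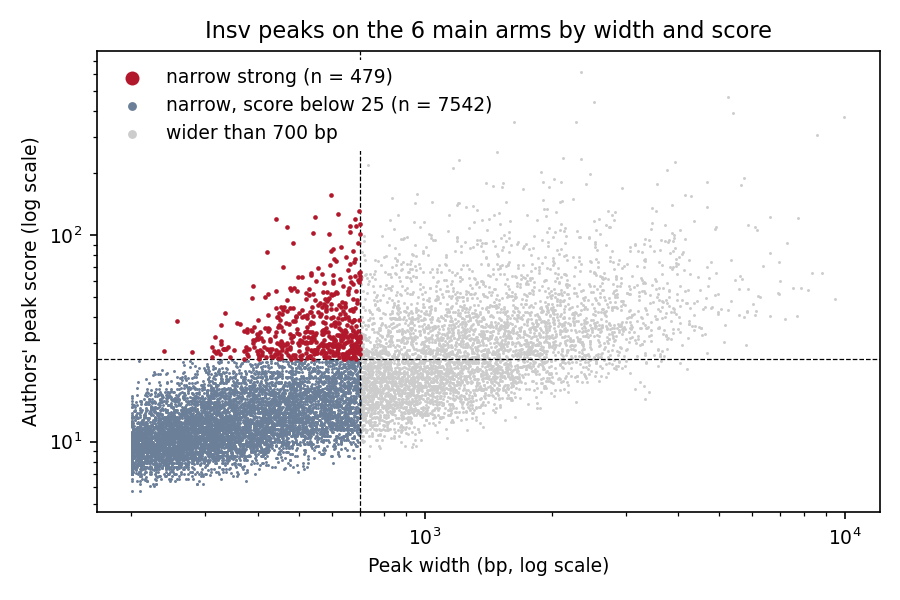
Each point is 1 peak on the 6 main arms, placed by its width in bp and by the authors' score, both on log scales, with dashed lines at 700 bp and at a score of 25. The 479 narrow strong peaks (red) fill the corner above the 7542 narrow weak peaks (blue), without a gap at either limit.

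On 2R, the interval from 14540182 to 14540777 was the strongest narrow site, scoring 155.97 over 596 bp. It stood at the edge of a region of 10 peaks, a region being a chain of peaks whose facing edges lie within 5 kb of the next. Its nearest neighbour, 544 bp away, was a narrow peak with a score of 17.14. The second, on X from 5812639 to 5813334, scored 131.41 and lay 1093 bp from a wide peak with a score of 52.64. The third (X, 9587730 to 9588350, score 126.08) had its nearest neighbour 6501 bp away on one side and 84137 bp away on the other. Sites inside chains of peaks and sites by themselves were thus both present at the very top of the class.

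Ranks 4 to 10 showed the same mixture. On 3L, the peak from 2489855 to 2490402 (score 121.99) lay in a region of 14 peaks. The 3L peaks from 18758764 to 18759204 (score 120.25) and from 17556592 to 17557289 (score 113.37) lay in regions of 4 peaks each. In both of these the nearest neighbour was a narrow weak peak, with scores of 13.22 and 9.11. The peak on 2R from 158052 to 158732 (score 119.72) stood alone, 8915 bp from a narrow peak with a score of 9.99. On 3R, the peak from 13769391 to 13770052 (score 111.11) had a neighbour 5067 bp away on one side and none within 131853 bp on the other. The 3R peak from 7599151 to 7599836 (score 110.54) lay in a region of 4 peaks beside a wide peak with a score of 33.1. The 3R peak from 15394521 to 15394990 (score 109.98) was only 470 bp wide and had 1 other peak within 50 kb. The highest members of the remaining arms were a peak on 2L from 2804622 to 2805294 with a score of 83.69 and one on chromosome 4 from 724719 to 725299 with a score of 43.79. The nearest neighbour of each was a narrow weak peak. No genome or annotation of release 5 was used here, so none of these peaks is assigned to a gene, and no sequence is shown.

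Narrow strong peaks stood alone more often than narrow weak peaks. A peak was taken to stand alone where no other peak of the list lay within 5 kb, measured between facing edges. This held for 106 of 479 narrow strong peaks, or 22.1% (exact Clopper-Pearson 95% interval 18.5 to 26.1), and for 593 of 7542 narrow weak peaks, or 7.86% (7.26 to 8.49). The difference was 14.3 percentage points (Newcombe 95% interval 10.7 to 18.2). These intervals cover counting error over the peaks of 1 list and treat peaks as independent, which neighbours are not, and no test over samples is possible.

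Each of the 5 large arms showed the difference in the same direction. On 3R, 22.6% of narrow strong peaks and 6.23% of narrow weak peaks stood alone. On X the shares were 24.4% and 6.95%, on 3L 25.3% and 10.9%, on 2L 21.3% and 9.80%, and on 2R 15.6% and 6.43%, narrow strong peaks first. The interval of the difference lay above 0 on each of these arms, from 9.12 points on 2R (2.93 to 18.1) to 17.5 points on X (9.65 to 27.4). Chromosome 4 had 3 narrow strong peaks, 2 of them alone, and 12 narrow weak peaks, 6 of them alone, too few to compare.

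With the width limit dropped, strong and weak peaks differed far less in the share standing alone. Among wide strong peaks (over 700 bp, score 25 or more), 129 of 2511 or 5.14% (4.31 to 6.07) stood alone. Among wide weak peaks (over 700 bp, score below 25) the share was lower, at 74 of 2161 or 3.42% (2.70 to 4.28). The pooled shares mix widths unequally, since wide peaks were 2511 of the 2990 strong peaks and 2161 of the 9703 weak ones. Strong peaks of any width stood alone in 7.86% of cases (6.92 to 8.88), against 6.87% (6.38 to 7.40) of all peaks with a lower score. Dropping the width limit thus reduced the difference to 0.985 points, and its interval then reached 0 (-0.0643 to 2.12). Narrow strong peaks were 3.77% of all peaks on the arms and 11.8% (9.72 to 14.0) of the 902 peaks that stood alone. The caller sets the width from where enrichment ends, so enriched ground beside a site can lengthen its peak. How far the width limit by itself favours sites without neighbours was not tested.

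The difference was also present at equal width. Of the strong peaks of 401 to 500 bp, 35.3% (26.1 to 45.4, n = 102) stood alone, against 8.24% (6.78 to 9.90, n = 1250) of the weak peaks of that width. At 601 to 700 bp the shares were 16.8% (11.8 to 22.8, n = 191) of strong and 3.59% (2.34 to 5.26, n = 696) of weak peaks. Strong peaks of 301 to 400 bp (24.4%, n = 45) and of 501 to 600 bp (19.6%, n = 138) also exceeded weak peaks of the same width (8.44%, n = 1885, and 5.67%, n = 847). Of the 3 members narrower than 301 bp, 0 stood alone, a number too small to limit the share. With narrow weak peaks reweighted to the widths of the strong ones, the share of weak peaks standing alone was 5.67% and the difference 16.5 points.

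**Figure D2:**
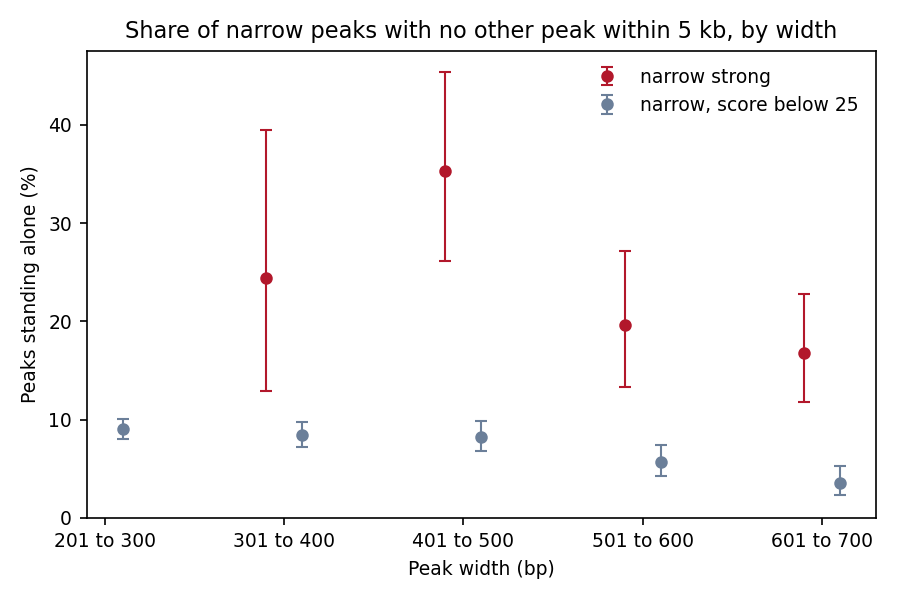
Share of narrow peaks with no other peak within 5 kb, in percent, by peak width in bands of 100 bp, with points for narrow strong (red) and narrow weak peaks (blue) and exact 95% intervals as bars. In the 4 bands with more than 3 strong peaks, the red points lie at 16.8 to 35.3% and the blue points at 3.59 to 8.44%.

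The share standing alone was larger at higher scores inside the class and showed no step at the limit of 25. Narrow peaks with scores of 20 to 25, just outside the class, stood alone in 11.9% of cases (9.27 to 15.0, n = 529). Those with scores of 25 to 30, just inside it, did so in 12.8% (8.40 to 18.5, n = 187). The share was 19.7% (13.7 to 27.0, n = 152) at scores of 30 to 40, 37.2% (27.5 to 47.8, n = 94) at 40 to 60 and 37.0% (23.2 to 52.5, n = 46) at 60 and above. Wide peaks with scores of 20 to 25 stood alone in 2.96% of cases. In the bands of 25 to 30, 30 to 40, 40 to 60 and 60 and above, wide peaks did so in 3.54%, 3.64%, 5.61% and 9.52%. The highest band of wide peaks, 60 and above, also had the highest share of its kind (6.95 to 12.7, n = 441), below that of narrow peaks with equal scores. Both score and width went with standing alone among the members. Members of 501 to 700 bp with scores below 40 stood alone in 9.09% of cases (5.64 to 13.7, n = 220), and those of the same width with scores of 40 or more in 35.8% (26.8 to 45.5, n = 109). At 500 bp or less the shares were 28.6% (20.7 to 37.6, n = 119) below 40 and 41.9% (24.5 to 60.9, n = 31) at 40 or more, with intervals that overlap.

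**Figure D3:**
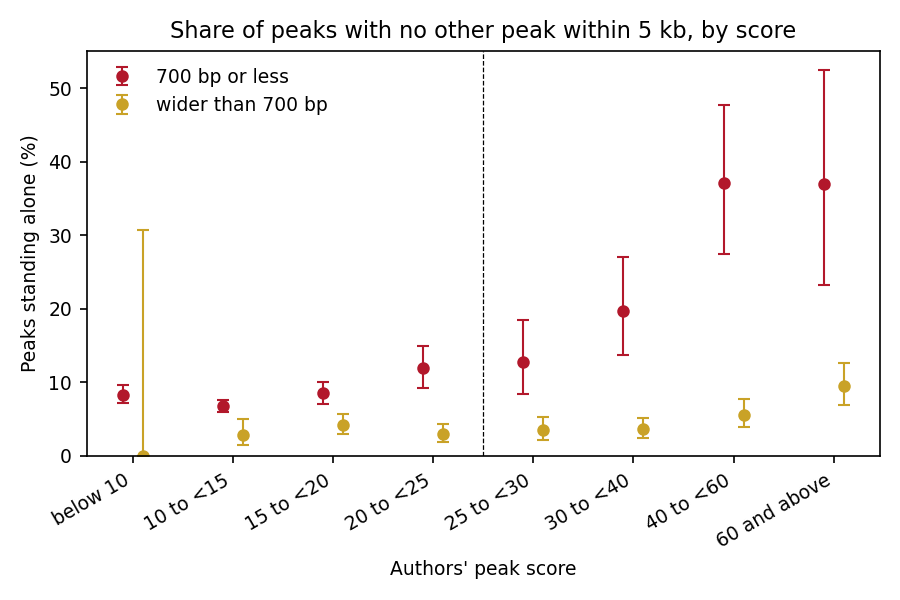
Share of peaks with no other peak within 5 kb, in percent, by score band, for peaks of 700 bp or less (red) and wider peaks (yellow), with exact 95% intervals as bars and a dashed line at a score of 25. The narrow peaks reach 37.2% at scores of 40 to 60, while the points of the wide peaks lie at 9.52% or less.

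Distances to neighbours showed where the classes parted. The nearest other peak lay at a median of 544 bp (95% interval from order statistics 442 to 698) from narrow strong peaks and 347 bp (331 to 362) from narrow weak peaks. The upper quartiles were further apart, at 3600 bp for narrow strong and 1050 bp for narrow weak peaks. On each of the 5 large arms the median was longer for narrow strong peaks, by 1.34 times on 2L and 3L and by up to 1.84 times on 2R. The intervals of the medians overlapped on X, 2L and 3L. They lay apart on 2R (426 to 976 against 268 to 329 bp) and 3R (367 to 1531 against 298 to 347 bp). Beyond 20 kb from any peak lay 11.5% (8.77 to 14.7) of narrow strong and 2.41% (2.08 to 2.79) of narrow weak peaks, and beyond 50 kb lay 21 narrow strong peaks (4.38%) and 60 narrow weak peaks (0.796%).

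Among peaks that did have company, the classes differed less in spacing. Taking only peaks with a neighbour within 5 kb cuts the distances of both classes there. It also removes peaks that no region of 10 or more can hold. The smaller differences can thus follow in part from the selection itself, and how far was not tested. With the lone peaks set aside, the median distance to the nearest peak was 359 bp (306 to 395) for 373 narrow strong and 294 bp (283 to 310) for 6949 narrow weak peaks. A neighbour within 500 bp was found for 61.4% (56.2 to 66.4) of these narrow strong and 63.9% (62.8 to 65.1) of these narrow weak peaks, a difference of -2.53 points whose interval included 0 (-7.69 to 2.40). Regions of 10 or more peaks held 37.2% (32.8 to 41.7) of all narrow strong and 46.2% (45.1 to 47.3) of all narrow weak peaks, a difference of -9.02 points (-13.4 to -4.47). Its interval reached 0 with a score limit of 20 (-2.51 points, -5.75 to 0.787) and with regions joined within 2 kb (-3.64 points, -6.89 to 0.0968). By arm it ran from -17.8 points on 3R (-25.8 to -8.62) to -0.247 points on 2R (-10.7 to 10.1). Only on X and 3R did its interval leave out 0. For regions of 5 to 9 peaks the difference was -8.94 points (-12.2 to -5.21), and for those of 20 or more -2.75 points (-5.98 to 0.970). Among peaks with company, regions of 10 or more peaks held 47.7% (42.6 to 52.9) of narrow strong and 50.1% (48.9 to 51.3) of narrow weak peaks. That difference was -2.40 points (-7.56 to 2.80). Neighbours within 5 kb on both sides flanked 49.3% of narrow strong and 63.5% of narrow weak peaks, and a neighbour on 1 side only was found beside 28.6% of each. The classes thus differed in the shares flanked on both sides and on neither. For 1 side only the difference was -0.0118 points (-4.01 to 4.31).

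**Figure D4:**
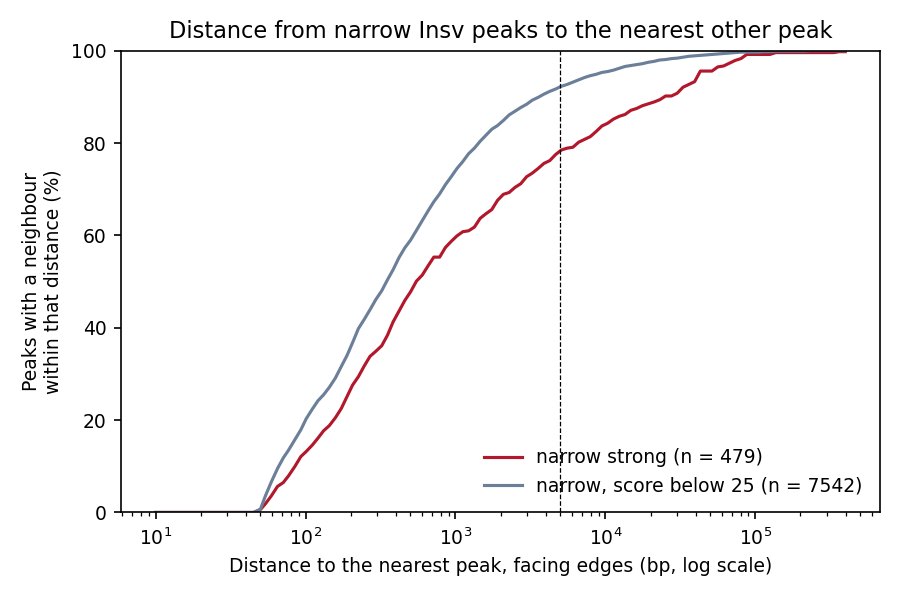
Percent of narrow strong (red) and narrow weak peaks (blue) whose nearest other peak lies within the distance on the x axis (bp between facing edges, log scale), with a dashed line at 5 kb. The red curve lies below the blue one and leaves 22.1% of peaks without a neighbour at 5 kb, against 7.86% for the blue one.

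The lone members scored higher than the others and lay far from other peaks. Scores of the 106 members that stood alone had a median of 39.5 (36.0 to 43.0), and those of the 373 members with company a median of 31.2 (30.3 to 32.0). Lone members were 526 bp wide at the median (478 to 579), members with company 575 bp (562 to 593). From a lone narrow strong peak the nearest other peak lay at a median of 21149 bp (14105 to 30404), against 11866 bp (11316 to 12734) from a lone narrow weak peak. A wide peak was found only at a median of 38648 bp (28682 to 45215) from the strong and 24086 bp (21543 to 27061) from the weak ones. Within 50 kb on either side, a lone narrow strong peak had a median of 4.50 other peaks (3 to 7), and a lone narrow weak peak 8 (7 to 9).

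The fifth strongest lone site, after those on X, 2R and 3R given above, was the 3L interval from 17583606 to 17584195, which scored 101.67 and had neighbours 6183 and 12270 bp away. The 3 members farthest from any peak scored lower than these lone sites, which were picked for their high scores. The median score of all members was 32.2. A 311 bp peak on 2L from 22941485 to 22941795, the last peak of that arm, had its only neighbour at 413037 bp and a score of 25.56. A 457 bp peak on 2L from 9176063 to 9176519, with a score of 41.41, lay in the middle of a bare stretch, 350442 bp from the next peak on one side and 520443 bp on the other. A 415 bp peak on 3L from 15290502 to 15290916, with a score of 35.67, had 136674 and 200850 bp of peak-free ground beside it.

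Peaks next to narrow strong peaks had higher scores than peaks next to narrow weak ones. The nearest neighbour had a score of 25 or more for 31.5% (27.4 to 35.9) of narrow strong and 19.3% (18.4 to 20.2) of narrow weak peaks. The median score of the nearest neighbour was 18.0 (16.9 to 19.4) beside narrow strong and 14.9 (14.7 to 15.1) beside narrow weak peaks. Most neighbours were weaker than the member itself, which the selection of members by score favours in advance. Members scored 25 or more, while 76.4% of all peaks on the arms scored below 25. No conclusion about the surroundings of members is drawn from their weaker neighbours. The neighbour was another narrow strong peak in 9.60% (7.12 to 12.6) of narrow strong and 3.13% (2.75 to 3.55) of narrow weak peaks, and a wide strong peak in 21.9% (18.3 to 25.9) and 16.1% (15.3 to 17.0). Both the share with a strong neighbour and that with a narrow strong neighbour were higher for narrow strong peaks on each of the 5 large arms. For a strong neighbour, the interval of the difference included 0 on 3R (-0.497 to 15.6). For a narrow strong neighbour, it included 0 on 2L (-0.511 to 10.7) and 3R (-0.0436 to 9.16). The share with a wide strong neighbour was higher on 4 of the large arms. Its interval lay above 0 only on X (1.48 to 20.1) and 2L (4.89 to 23.7). For a nearest neighbour wider than 700 bp, whatever its score, the interval of the difference included 0, with 34.9% (30.6 to 39.3) of narrow strong and 33.6% (32.5 to 34.7) of narrow weak peaks and a difference of 1.27 points (-3.00 to 5.76). It was 3.14 points (0.0374 to 6.33) with a width limit of 1000 bp for both classes, and -4.74 points (-9.76 to 0.817) with a score limit of 30. Peaks of 1 enriched stretch share its signal, so the scores of close neighbours are not independent.

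Counts of members per region are given as a description only. Members were 3.77% of the peaks on the arms, and no other class was counted in this way. The arms held 2606 regions, single peaks included, of which 408 had a narrow strong peak and 50 had more than 1. Of the 374 regions of 10 or more peaks, 124 held a member. The most members were 5, found on X from 6137703 to 6195821 among 29 peaks and on 3L from 8668406 to 8707127 among 28 peaks. The highest members there lay from 6171711 to 6172318 (score 51.85) and from 8685394 to 8686064 (score 44.03), below the regions' strongest peaks, which scored 371.52 and 87.78. Next came 2R from 9820520 to 9899928, where 4 of 41 peaks were members and the member from 9894239 to 9894805 was the strongest peak of the region with a score of 64.65.

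The share of narrow peaks that were strong varied moderately between the large arms. Narrow strong peaks made up 7.07% of the narrow peaks on 2L (exact 95% interval 5.75 to 8.59), 6.36% on 3L (5.13 to 7.79), 6.06% on X (4.90 to 7.39), 5.64% on 3R (4.68 to 6.73) and 5.04% on 2R (4.08 to 6.16). The ratio to the other arms together ran from 0.809 on 2R (0.647 to 1.01) to 1.23 on 2L (0.989 to 1.53), and both intervals included 1. With other limits this changed, since the ratio was 1.24 (1.07 to 1.43) on 2L with a score limit of 20 and 0.604 (0.386 to 0.946) on 2R with a width limit of 500 bp. On chromosome 4 it was 3 of 15 narrow peaks (4.33 to 48.1%), and the ratio of 3.36 (1.22 to 9.29) rests on those 3 peaks. Its interval included 1 with a score limit of 20 (0.917 to 4.93) and with width limits of 500 bp (0.637 to 26.6) and 1000 bp (0.965 to 5.38). Counted per Mb between the first and last peak of an arm, narrow strong peaks ran from 3.58 on 3L to 4.35 on 2R among the large arms, while narrow weak peaks ran from 52.6 on 3L to 81.8 on 2R. These densities rest on 87 to 115 narrow strong peaks per large arm, and the difference between arms was not tested.

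Place along the arms was compared over the large arms together and then arm by arm. Each large arm was divided into 5 equal parts, with the centromere at the high end of X, 2L and 3L and at the low end of 2R and 3R. The fifth of the arm next to the centromere held 20.8% (17.2 to 24.7) of narrow strong and 19.9% (19.0 to 20.8) of narrow weak peaks on the 5 large arms, a difference of 0.944 points (-2.58 to 4.92). In the fifth next to the telomere the shares were 18.3% (14.9 to 22.0) of narrow strong and 22.0% (21.1 to 23.0) of narrow weak peaks. That difference of -3.75 points had an interval that reached 0 (-7.11 to 0.0792), although narrow strong peaks had the lower share there on each of the 5 arms, from 1.13 points lower on 3L to 9.83 points lower on 2L. The second part from the centromere also had 1 direction on all 5 arms, with narrow strong peaks 0.503 to 4.91 points higher. Over the arms together that difference was 2.90 points (-0.818 to 7.03). Of the differences on single arms, that on 2L at the telomere end (-9.83 points, -15.7 to -1.29) and that on X in the fourth part from the centromere (9.23 points, 0.455 to 19.6) had intervals that left out 0. They are 2 among the 5 parts of 5 arms and were not adjusted for that number. In the 115 complete 1 Mb bins the counts of narrow strong and narrow weak peaks went together, with a Spearman rho of 0.58 across bins. This is a description without a test, since neighbouring bins are not independent and both counts come from the same libraries. Narrow strong peaks averaged 4.06 ± 2.79 per bin and narrow weak peaks 64.2 ± 31.0 (SD over 115 bins). The bins richest in members were 2R from 7 to 8 Mb with 13, X from 6 to 7 Mb with 12, and 2L from 13 to 14 and from 20 to 21 Mb with 10 each, all with 79 or more narrow weak peaks. Bins with 9 members varied more in narrow weak peaks. They included X from 5 to 6 Mb with 53, 2L from 12 to 13 Mb with 59 and 2R from 9 to 10 Mb with 134.

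**Figure D5:**
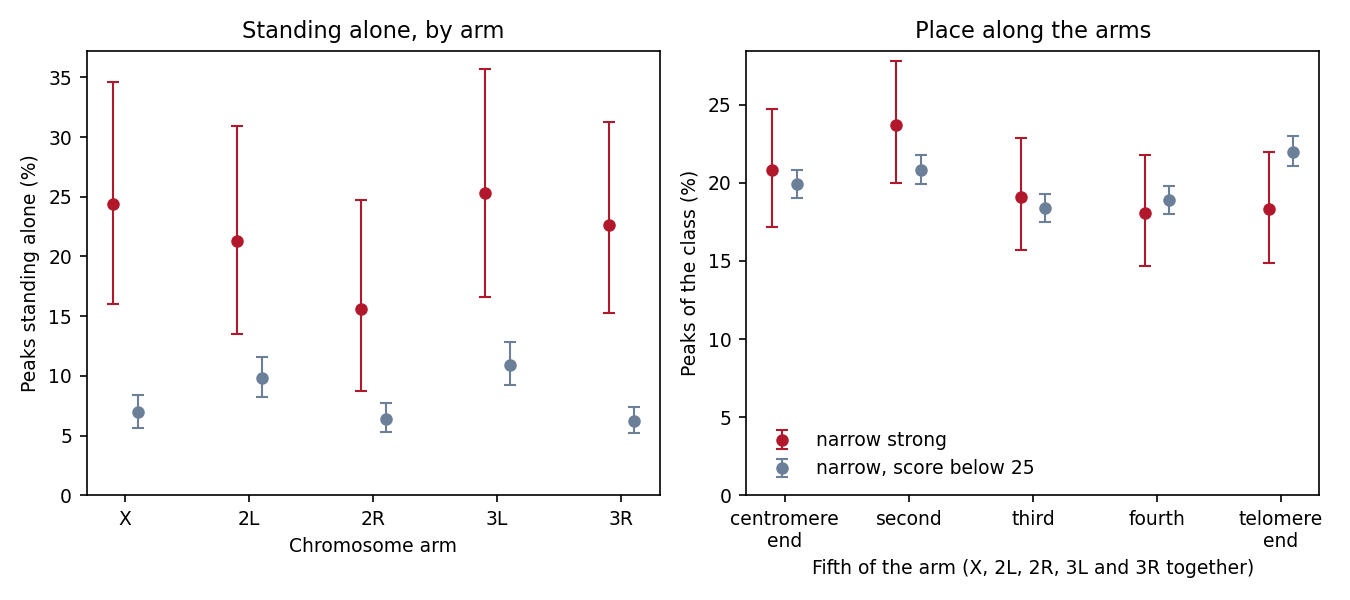
Left, percent of narrow strong (red) and narrow weak peaks (blue) standing alone on each large arm. Right, percent of each class in 5 equal parts of the arms from centromere to telomere, both with exact 95% intervals as bars. The red points lie above the blue ones on each of the 5 arms (15.6 to 25.3% against 6.23 to 10.9%), while along the arms the difference farthest from 0 is -3.75 points, at the telomere end.

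Lone members were found both in sparse and in dense parts of the arms. With the 1 Mb bins sorted into 4 groups by their number of peaks, the sparsest group (1 to 63 peaks per bin) had 41.5% (28.1 to 55.9) of narrow strong and 19.0% (16.3 to 21.9) of narrow weak peaks standing alone. The next groups had 19.6% (12.2 to 28.9) against 8.87% (7.50 to 10.4), and 29.9% (22.7 to 38.0) against 8.10% (6.95 to 9.37), narrow strong peaks first. In the densest group (140 to 239 peaks per bin), 10% (5.93 to 15.5) of narrow strong and 4.12% (3.44 to 4.89) of narrow weak peaks stood alone. From the sparsest to the densest group, the share of narrow peaks that were strong was 6.40% (4.83 to 8.29), 5.87% (4.78 to 7.11), 6.77% (5.75 to 7.91) and 5.31% (4.56 to 6.14). These intervals overlap, which does not show that the shares are equal, and the difference between groups was not tested.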

How the data were processed

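The data are 1 list of peaks for 3 Insv ChIP and 3 input samples. The submitters' processing notes name build BDGP5 and the tools MACS2, BWA and CASAVA (1.7.0.2, 1.7.0.3). MACS is the source and FlyBase release 5 the build per the file headers. For the peak threshold, the pooling of replicates and the other versions, nothing is stated. The deposited score is the authors' own, on a scale that is not stated, and served only to rank and divide peaks. Starts and ends are 1-based.

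From these, gaps between facing edges, nearest neighbours, regions joined within 5 kb, 100 bp width bands and 1 Mb bins were computed (Python 3.11.15, numpy 2.4.6, scipy 1.17.1, pandas 2.3.3, matplotlib 3.10.9). Shares have exact Clopper-Pearson, differences of shares Newcombe, arm ratios log-normal and medians order-statistic intervals, at 95%. No p-value is given, since no value belongs to a library. The functions were tested on simulated data. Arms run from first to last peak. Alternatives were other limits for score (20, 30, 50), width (500, 1000 bp) and distance (2, 10, 20 kb), reweighting for width and leaving out each arm. Named peaks were the 10 highest members, the highest of each arm, the 5 highest standing alone, the 3 farthest from any peak, the highest in the 3 regions with most members, and those at the limits. The members, lists and comparisons were chosen with earlier results of these data known. A gene table of release 6 was not used.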

Additional observations from a re-analysis of the deposited data

Results flagged for a closer look

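Outside the 6 main arms, peaks of the same width and score were found on scaffolds that enter none of the comparisons. Uextra, a collection of unplaced sequence, held 168 peaks of 700 bp or less with a score of 25 or more. They were 71.8% (exact 95% interval 65.6 to 77.5) of its 234 narrow peaks, against 5.97% (5.46 to 6.51) of the narrow peaks on the arms. The scaffold U held 4 among 9 narrow peaks (44.4%, 13.7 to 78.8). They are listed because they lie outside the comparisons, and no number of such peaks to expect on these scaffolds is known. Mapping and copy number on these scaffolds are not known here, and the cause was not tested.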

How the results depend on the processing

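The higher share of narrow strong peaks standing alone, 14.3 points above narrow weak peaks, kept its direction under each of 18 alternatives. It was 9.21, 20.1 and 28.4 points with score limits of 20, 30 and 50, 22.7 and 8.48 points with width limits of 500 and 1000 bp, 9.07 points at a distance of 20 kb and 0.985 points for peaks of any width. The difference in median nearest distance, 197 bp, kept its direction under 14 alternatives. It was 62.5, 478 and 1400 bp with those score limits, 742 bp with the width limit of 500 bp, 354 bp between midpoints and 616 bp with peaks scoring below 15 left out. For regions of 10 or more peaks the difference of -9.02 points was -2.51 and -23.5 points with score limits of 20 and 50, -16.3 and -3.49 points with width limits of 500 and 1000 bp, and -3.64 points with regions joined within 2 kb. With the score limit of 20 and with joining within 2 kb its interval reached 0 (-5.75 to 0.787 and -6.89 to 0.0968). For wide nearest neighbours the difference of 1.27 points was -4.74 and -8.76 points with score limits of 30 and 50, and -3.67 points with the width limit of 500 bp, all with intervals that included 0. It was 3.14 points (0.0374 to 6.33) with the width limit of 1000 bp. The ratio for 2R, 0.809, was 0.592 with a score limit of 50 and 0.604 with the width limit of 500 bp, where its interval (0.386 to 0.946) left out 1. The causes of these moves were not tested. Reweighting for bin density, leaving out low scores and dropping the width limit were chosen after seeing the data. Leaving out any 1 arm gave 13.5 to 15.4 points for peaks standing alone. The ratio for 2L left out 1 with a score limit of 20 (1.07 to 1.43), and that for chromosome 4 no longer did so with a score limit of 20 (0.917 to 4.93) and with width limits of 500 bp (0.637 to 26.6) and 1000 bp (0.965 to 5.38). The interval of the difference near the centromere included 0 in each alternative for which one was computed. No paired analysis was possible because no value of the list belongs to 1 library. An unknown depth limits which weak neighbours were found, and so which sites count as alone.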

Other observations

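Members were 3.77% of the peaks on the arms, and no count of pairs is given for another class, so the pairs are a description only. Narrow strong peaks next to each other on an arm, with no peak between them, formed 35 pairs. Of these pairs, 22 lay within 5 kb and 11 within 500 bp of each other. In 18 of these pairs each peak was the nearest neighbour of the other, with a median gap of 742 bp and a smallest gap of 50 bp, which is also the smallest gap between any 2 peaks on the arms. Inside regions of 3 or more peaks, narrow strong peaks held an end of the region in 27.2% of cases (exact 95% interval 22.4 to 32.4, n = 324) and narrow weak peaks in 25% (23.9 to 26.1, n = 6388). Equal use of every place in these regions would give 25.7% for narrow strong and 24.7% for narrow weak peaks. The 3 narrowest members, singled out after their values were seen, measured 239, 256 and 279 bp, and each lay within 375 bp of a wide peak.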
